A study of Mus musculus with 19 samples.

Results

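Genes that mark macrophages, monocytes, lymphocytes and MHC class II antigen presentation were followed through the ventral (VP) and dorsolateral (DLP) lobes of the mouse prostate under 2 diets. The set holds 40 genes chosen by name and grouped by lineage, namely 4 shared leukocyte genes, 11 macrophage and monocyte genes, 3 C1q chains, 8 T cell genes, 3 B cell genes, 6 class II genes, 2 genes of monocyte recruitment, 2 neutrophil genes and 1 mast cell gene. Each gene is represented by its probe set with the highest mean over all 19 arrays. Of the 40 members, 30 lay above the median of their own array on at least 4 arrays. They were tested together with all 11728 genes that had a probe set meeting this rule. The 19 arrays fell into 4 groups, with 4 arrays of DLP from mice on a high fat diet (HFD), 5 of DLP from mice on a control diet, 5 of VP from HFD mice and 5 of VP from control mice. All mice were C57BL/6J, 8 weeks old when the diets began, and were fed for 12 weeks, with 5 mice per diet. Arrays are named by diet, lobe and the replicate number in their title, as in HFD VP 3. The labels do not tie arrays to mice, so lobes of 1 mouse may be present in both lobe groups, and the p-values reflect only how much these arrays vary, which may be technical.

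Macrophages reside in most solid tissues. They take up debris and microbes and make the 3 chains of C1q, the first component of the classical complement pathway. Dendritic cells, B cells and activated macrophages display peptides on MHC class II molecules, whose alpha and beta chains assemble on the invariant chain Cd74 and exchange its fragment for a peptide with the help of H2-DM. The transcription of class II genes and of Cd74 depends on the coactivator Ciita, which docks on RFX and NF-Y proteins bound to the X and Y boxes of their promoters, whereas the factor PU.1 drives many myeloid genes.

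The promoters of 2 class II chains and of 1 C1q chain are shown for their motif matches. Among the members searched, the 2 class II promoters hold matches to both class II motifs. That of C1qb holds a PU.1 core close to the transcription start. None of these 3 genes was called in a comparison below. The sequences are the 250 bases before the RefSeq start of each gene, 5′ to 3′ on the gene's own strand, from the RefSeq table of build GRCm38.p6. H2-Aa lies on the minus strand at chr17:34287824-34288073, H2-Eb1 on the plus strand at chr17:34305617-34305866, and C1qb on the minus strand at chr4:136886201-136886450. Capitals mark matches on either strand to GATTGG (the core of the Y box, bound by NF-Y), to ACNGATG (the end of the X box) and to GAGGAA (a PU.1 core).
H2-Aa: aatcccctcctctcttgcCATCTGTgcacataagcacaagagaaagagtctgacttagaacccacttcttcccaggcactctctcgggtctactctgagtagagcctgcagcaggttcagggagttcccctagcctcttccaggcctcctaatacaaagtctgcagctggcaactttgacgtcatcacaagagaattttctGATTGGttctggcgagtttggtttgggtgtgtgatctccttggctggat
H2-Eb1: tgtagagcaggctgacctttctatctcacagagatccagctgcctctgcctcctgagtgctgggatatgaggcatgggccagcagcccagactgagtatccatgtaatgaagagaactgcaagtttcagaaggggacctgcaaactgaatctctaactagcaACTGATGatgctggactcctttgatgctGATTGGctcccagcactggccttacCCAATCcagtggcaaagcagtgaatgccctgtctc
C1qb: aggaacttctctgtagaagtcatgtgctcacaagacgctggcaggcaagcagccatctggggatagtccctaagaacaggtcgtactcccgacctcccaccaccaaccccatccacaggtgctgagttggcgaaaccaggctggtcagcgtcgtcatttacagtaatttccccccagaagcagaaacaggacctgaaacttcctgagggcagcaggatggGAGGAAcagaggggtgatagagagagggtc
In H2-Aa the Y box core began 49 bases before the start. A match to ACNGATG on the opposite strand began 232 bases before the start, and whether it is part of an X box was not tested. In H2-Eb1 an X box end began 88 bases and a Y box core 60 bases before the start, with another Y box core on the opposite strand at 35 bases. C1qb held a PU.1 core 30 bases before the start. Of 32851 promoter windows of this length, 14.6% held GATTGG, 8.31% held ACNGATG and 23.3% held GAGGAA. Among the 24 members with a promoter in the table, 6 held GATTGG, 3 held ACNGATG and 14 held GAGGAA. H2-Aa and H2-Eb1 were the members with matches to both class II motifs. A match is a description of the letters alone.

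Values are log2 levels converted from the deposited log10 values, with an array median of 1.85, an upper quartile of 3.46 and a maximum of 13.25. Because the log base was inferred, every fold rests on it. Every array held the same set of sorted values, so that a level gives the rank of a probe set on its array, and a shift of most genes at once cannot be seen. Levels of different probe sets are not compared with each other. As markers of the labelled tissue, the prostate epithelial genes Krt18, Krt8, Epcam and Hoxb13 had group means between 7.75 and 9.95 in both lobes. The Gapdh 3′ minus 5′ control difference, a sign of RNA quality, ran from -0.54 to -0.35 in HFD DLP, from -0.49 to -0.36 in control DLP, from -0.41 to -0.19 in HFD VP and from -0.26 to -0.03 in control VP.

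The macrophage, C1q and class II genes mostly passed the filter, and fewer of the lymphocyte genes did. Passing asks only for a level above the array median on at least 4 arrays. Some genes that passed were not above it throughout, with Cd68 above it on 16 arrays, Cd163 on 13 and Itgb2 on 12. All 4 shared leukocyte genes, 10 of 11 macrophage and monocyte genes, all 3 C1q chains and 5 of 6 class II genes passed the filter. Itgam, the alpha chain of the integrin Mac-1, did not pass and lay above the array median on 1 array. Of the T cell genes, 4 of 8 passed, while the T cell receptor chains Cd3e and Cd3d and the surface receptors Cd2 and Cd4 did not, with Cd3e, Cd2 and Cd4 above the median on 0 arrays. Of the B cell genes, 1 of 3 passed, and the B cell receptor chains Cd79a and Cd79b lay above the median on 0 arrays. Ciita, the chemokine Ccl2 and the calcium-binding neutrophil protein S100a9 also failed, with 1, 1 and 2 arrays above the median. H2-Ea, the class II E alpha chain that C57BL/6 mice do not make, had levels from 0.19 to 1.44 and lay above the median on 0 arrays. In tissue RNA, fewer cells of a type and less RNA per cell cannot be told apart.

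Several arrays stood apart in these genes. HFD VP 3 was the highest of its 5 arrays in 25 of the 30 tested members, although it was the highest in 24.8% of all genes tested. It led all 13 tested macrophage, monocyte and C1q genes and all 5 class II genes. Lyz2, the macrophage and neutrophil lysozyme, was 7.89 there, against 3.82, 4.25, 4.85 and 4.91 on the other HFD VP arrays. The same array had the highest deviation of the interferon response genes, 2.29 above their average on the log2 scale, and of the MHC class I genes, 1.44, while its fibroblast genes deviated by 0.40. Its Gapdh 3′ minus 5′ difference, -0.41, was the lowest of the VP arrays. Control DLP 1 was the highest of its group in 23 of 30 members, against 20.3% of all genes. There Lyz2 was 6.22, against 3.84, 4.04, 4.29 and 4.61 on the other control DLP arrays. HFD DLP 4 was the highest of its group in 18 members, all 5 class II genes among them, against 26.8% of all genes, and control VP 3 in 17, against 15.9%. Control VP 5 was the lowest of its group in 17 members, against 21.7% of all genes. HFD VP 2 was the lowest of its group in 17 of 30 members, against 22.5% of all genes, and had the highest deviation of the seminal vesicle genes, 4.14. The next highest were HFD DLP 1 at 2.56 and control DLP 3 at 1.01. HFD DLP 1 was the lowest of its group in 12 members, against 24.6% of all genes, and control DLP 3 in 14, against 20%. The part of these companion signals in the members' levels was not tested.

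**Figure D1:**
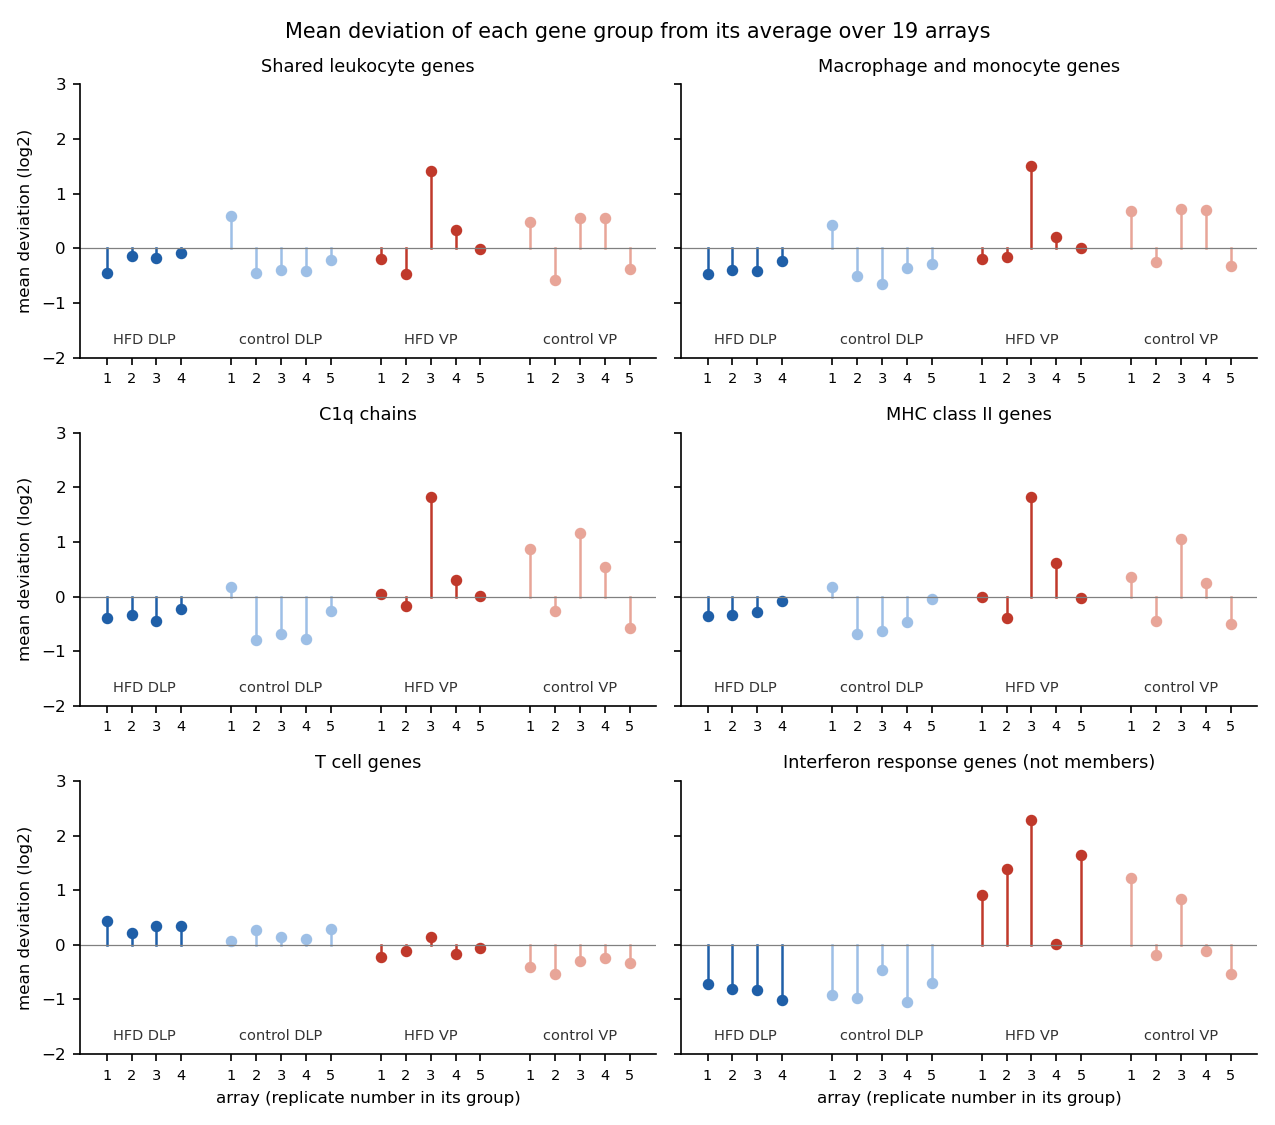
Mean deviation of the tested genes of each lineage from their own average over 19 arrays (log2, y axis) for each array (x axis, replicate number within its group), with dark points for HFD and light points for control diet. HFD VP 3 reached 1.50 for the macrophage and monocyte genes and 1.83 for the class II genes. Control DLP 1 was the highest DLP array for the macrophage and monocyte genes at 0.42. The mean deviation of the 4 T cell genes was above 0 on all DLP arrays. Among these 4, Thy1 had the largest lobe difference, 1.55 in HFD and 1.78 in control mice. Cd3g went the other way, at -0.36 in HFD and -0.29 in control mice.

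Within VP, the arrays that were high in the macrophage genes were mostly those that were high in the class II genes. The class II genes deviated by -0.01, -0.39, 1.83, 0.62 and -0.02 on HFD VP 1 to 5, and by 0.35, -0.45, 1.05, 0.24 and -0.50 on control VP 1 to 5. The macrophage and monocyte genes deviated by -0.20, -0.16, 1.50, 0.21 and 0.01 on the same HFD arrays, and by 0.68, -0.25, 0.72, 0.70 and -0.33 on the control arrays. Control VP 3 had the highest level of all 5 class II genes in its group, and control VP 2 and 5 were low for both lineages. In HFD DLP, by contrast, the class II genes deviated by -0.36 to -0.08 and the macrophage and monocyte genes by -0.47 to -0.24. Among the neutrophil genes, S100a8, a chain of the neutrophil protein calprotectin, was 4.26 on control DLP 1 and 2.92 on control VP 4, against 2.14 on HFD VP 3. S100a9, its partner, was 3.05 on control DLP 1, the highest of its 19 values, although it failed the filter.

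The spread within a group was wide for the members, and in HFD VP it was widest for the class II genes. The median standard deviation (SD) of the 30 tested members was 0.16 in HFD DLP, 0.39 in control DLP, 0.69 in HFD VP and 0.61 in control VP on the log2 scale. For all 11728 genes it was 0.12 in HFD DLP, 0.13 in control DLP, 0.17 in HFD VP and 0.18 in control VP. The 5 class II genes had median SDs of 0.14 in HFD DLP, 0.41 in control DLP, 0.96 in HFD VP and 0.70 in control VP. The 4 T cell genes had median SDs of 0.16 in HFD DLP, 0.20 in control DLP, 0.25 in HFD VP and 0.26 in control VP. The test set each difference between diets or lobes against its standard error, which rests on 1 spread per gene for all groups. A wide spread in the macrophage and class II genes thus raised the difference needed for a call.

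**Figure D2:**
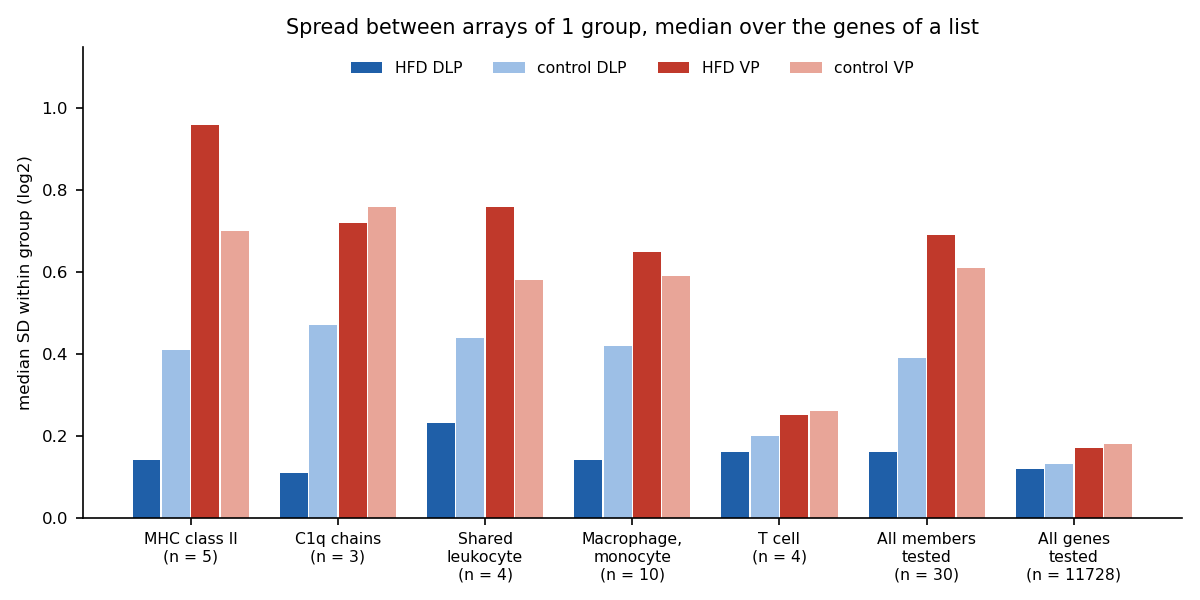
Median within-group SD on the log2 scale (bars, y axis from 0) over the tested genes of the 5 lineages with at least 3 tested genes, of all 30 tested members and of all 11728 genes, with 1 bar per group. The VP bars of the class II genes reached 0.96 in HFD and 0.70 in control mice, while those of all genes stayed at 0.17 and 0.18, and the HFD DLP bars shown lay between 0.11 and 0.23.

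No member was called between diets in VP. Of the 30 tested members, 0 were called, where 1.11% of all genes were (limma, Benjamini-Hochberg adjusted p under 0.05), and 2 members, Thy1 and Cd3g, had an unadjusted p under 0.05, as had 1786 of all genes (15.2%). The members' log2 differences, HFD minus control, ran from -0.30 to 0.35 with a median of 0.13, against 0.01 for all genes, and the smallest adjusted p was 0.28. The arrays of the 2 diets overlapped in all 30 members, where the arrays of 2.58% of all genes did not, 1.38% with higher and 1.19% with lower HFD values.

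At the probe sets used, the class II genes had positive differences in VP, none of them called. The sign of their median turned when HFD VP 3 was left out. H2-Aa, the alpha chain of the class II molecule I-A, was 6.12, 5.57, 8.10, 6.84 and 6.12 in HFD VP and 6.60, 5.52, 7.30, 6.25 and 5.77 in control VP. The diets overlapped, and the highest value was on HFD VP 3. The difference was 0.26, with a 95% interval from -0.49 to 1.01. The differences of H2-Ab1 (the I-A beta chain), H2-Eb1 (the beta chain of I-E), Cd74 and H2-DMa lay between 0.22 and 0.32, and the median of the 5 genes was 0.26. Further probe sets of H2-Ab1, above the array median on all 19 arrays, differed by -0.07 and -0.06. Those of H2-Aa differed by 0.74, 0.23 and -0.21, and that of H2-DMa by 0.22. The class II median of the probe sets used became -0.12 when HFD VP 3 was left out and 0.48 when control VP 3 was. The median over all 30 members was -0.16 without HFD VP 3, with 9 positive differences in place of 20, and 0 members were called.

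The macrophage genes showed no common direction between diets in VP. Of the 10 tested, 5 were positive and 5 negative, with a median of -0.02 that was -0.29 without HFD VP 3. Cd68, a lysosomal glycoprotein of macrophages, was 1.97, 2.17, 3.38, 2.17 and 2.02 in HFD VP and 2.93, 2.28, 2.67, 3.00 and 2.22 in control VP. Apart from HFD VP 3, each HFD value was below each control value. Its difference was -0.28 (adjusted p = 0.58). The 3 C1q chains had differences from -0.03 to 0.16, with a median of 0.05 that was -0.26 without HFD VP 3 and 0.26 without control VP 3. The difference of Csf1r, the receptor for the macrophage growth factor Csf1, was -0.23 with an interval from -0.92 to 0.46.

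The 4 tested T cell genes had positive differences in VP, from 0.17 to 0.35, with a median of 0.30 that was 0.21 without HFD VP 3 and 0.06 with an offset of 16 in the logarithm. Thy1, a surface glycoprotein of T cells that neurons and fibroblasts also carry, was 1.94, 2.20, 2.82, 2.32 and 2.38 in HFD VP and 2.21, 1.45, 2.04, 2.15 and 2.04 in control VP. Cd3g, the gamma chain of the T cell receptor complex, was 1.54, 1.85, 2.40, 1.93 and 1.66 in HFD VP and 1.71, 1.37, 1.52, 1.88 and 1.27 in control VP. The diets overlapped in both genes, and most Cd3g values lay below the array median of 1.85. Cd3g lay above it on 3 HFD VP, 1 control VP and 0 DLP arrays. It thus passed the filter only with HFD VP, where it is higher, so that a positive difference was favoured in advance. The differences were 0.35 for Thy1 (adjusted p = 0.28) and 0.33 for Cd3g (adjusted p = 0.31).

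**Figure D3:**
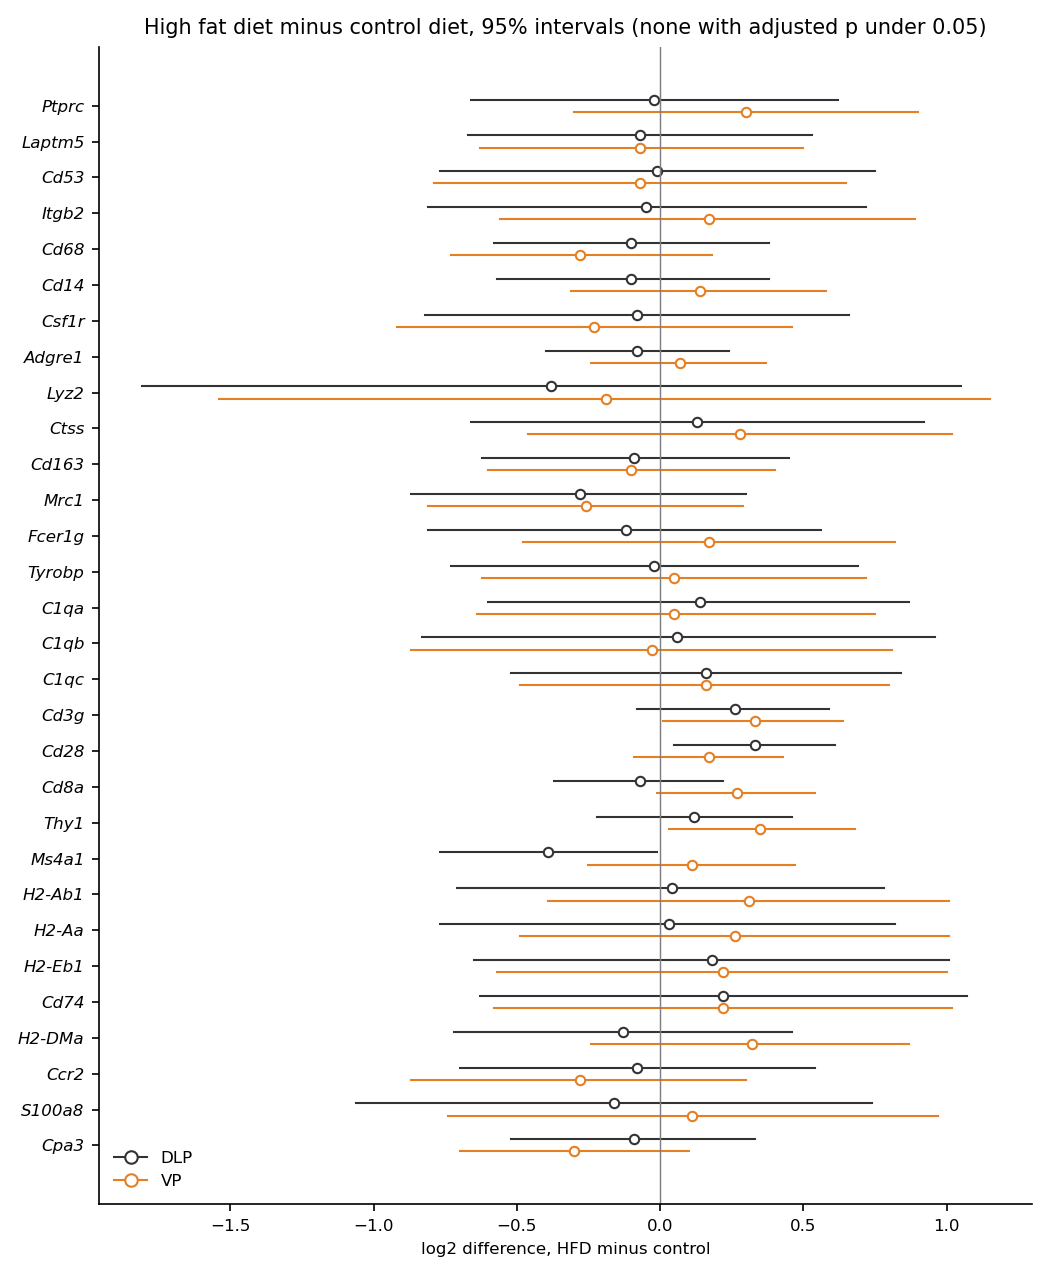
Log2 difference, HFD minus control, of each of the 30 tested members (x axis) with its 95% interval, in DLP (dark) and in VP (orange). No member passed the adjusted threshold in either lobe, the differences lay between -0.39 and 0.35, and Lyz2 had the widest intervals.

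No member was called between diets in DLP either. Of the 30 members 0 were called, where 0% of all genes were (limma). An unadjusted p under 0.05 held for 662 of all genes (5.64%) and for 2 members, Cd28 and Ms4a1. Both passed the filter only with the DLP diet group in which they were high. The members' differences ran from -0.39 to 0.33 with a median of -0.06, against 0.01 for all genes. Without control DLP 1 that median was 0.13, with 23 of 30 differences positive in place of 11.

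Ms4a1, the B cell surface protein CD20, was the member whose diet groups did not overlap in DLP. It was 1.70, 1.48, 1.78 and 1.74 in HFD DLP and 2.51, 1.93, 1.83, 2.00 and 2.04 in control DLP. All HFD values lay below the array median, and 4 of 5 control values lay above it. Ms4a1 passed the filter through those 4 arrays alone, so that a lower level in HFD DLP was bound to follow. Its difference was -0.39 with an interval from -0.77 to -0.01 and an adjusted p of 0.88, and in 3.15% of all genes the DLP arrays of the diets did not overlap, 1.13% with lower HFD values. Cd28, a costimulatory receptor of T cells, was 2.29, 2.11, 2.34 and 2.02 in HFD DLP and 1.69, 1.98, 1.80, 1.68 and 2.15 in control DLP. Its groups overlapped through control DLP 5, and the difference was 0.33 with an adjusted p of 0.82. Cd28 lay above the array median on 4 HFD DLP, 2 control DLP and 1 HFD VP arrays. It thus passed the filter only with HFD DLP, where it is high, so that a positive difference was favoured in advance.

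No member was called for a diet difference that differed between lobes. This contrast, the diet difference in DLP minus that in VP, was called in 0 of 30 members and in 0.00853% of all genes (limma). It ran from -0.49 for Ms4a1 to 0.21 for Cpa3, with a median of -0.07 over the members and a smallest adjusted p of 0.60. The median was 0.17 without HFD VP 3, and 0.33 without both HFD VP 3 and control DLP 1.

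More members were called between lobes than between diets. Those called lower in DLP were macrophage, C1q and class II genes, and those called higher were T cell, B cell and mast cell genes. Of the higher members, Cd28, Ms4a1 and Cpa3 passed the filter through DLP, so that their differences were bound to follow. They include every B cell and mast cell call. On the control diet, 12 of 30 members were called, 5 higher and 7 lower in DLP, where 55% of all genes were called, 28.2% higher and 26.8% lower. On the high fat diet 8 of 30 were called, 3 higher and 5 lower, where 52.9% of all genes were called, 26.8% higher and 26.1% lower. The counts of lower members moved with single arrays. They ranged from 2 (without HFD VP 3 or HFD DLP 3) to 8 (without HFD VP 1 or 2) in HFD mice and from 2 (without control VP 3) to 9 (without HFD VP 3) in control mice, and 16 were called lower in control mice without both HFD VP 3 and control DLP 1. The share of members called was below that of all genes on both diets. The lobe groups did not overlap in 3 members that were higher and 5 that were lower in HFD DLP, where this held for 44.4% of all genes, 23% higher and 21.5% lower. In control mice they did not overlap in 3 higher members and 0 lower ones, against 39.3% of all genes, 20.2% higher and 19.1% lower. The members' median difference, DLP minus VP, was -0.50 on the high fat diet and -0.36 on the control diet, against 0.00 for all genes on each. Markers of other cells differed between lobes too. Of 6 luminal epithelial genes, 4 were called lower in DLP on each diet, while Krt19 was called higher in HFD DLP, by 0.50. Of 8 smooth muscle genes, 6 were called higher in DLP on each diet. Whether cell numbers differ was not tested. Summarised over their genes, the luminal epithelial deviation was -0.33 to -0.12 in DLP and 0.00 to 0.37 in VP, and its part in the member differences was not tested. The interferon response genes moved with the lobe as well, with 11 of 12 called lower in HFD DLP (median -2.09) and 7 of 12 in control DLP (median -1.10). Their part in the member differences was not tested either.

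**Figure D4:**
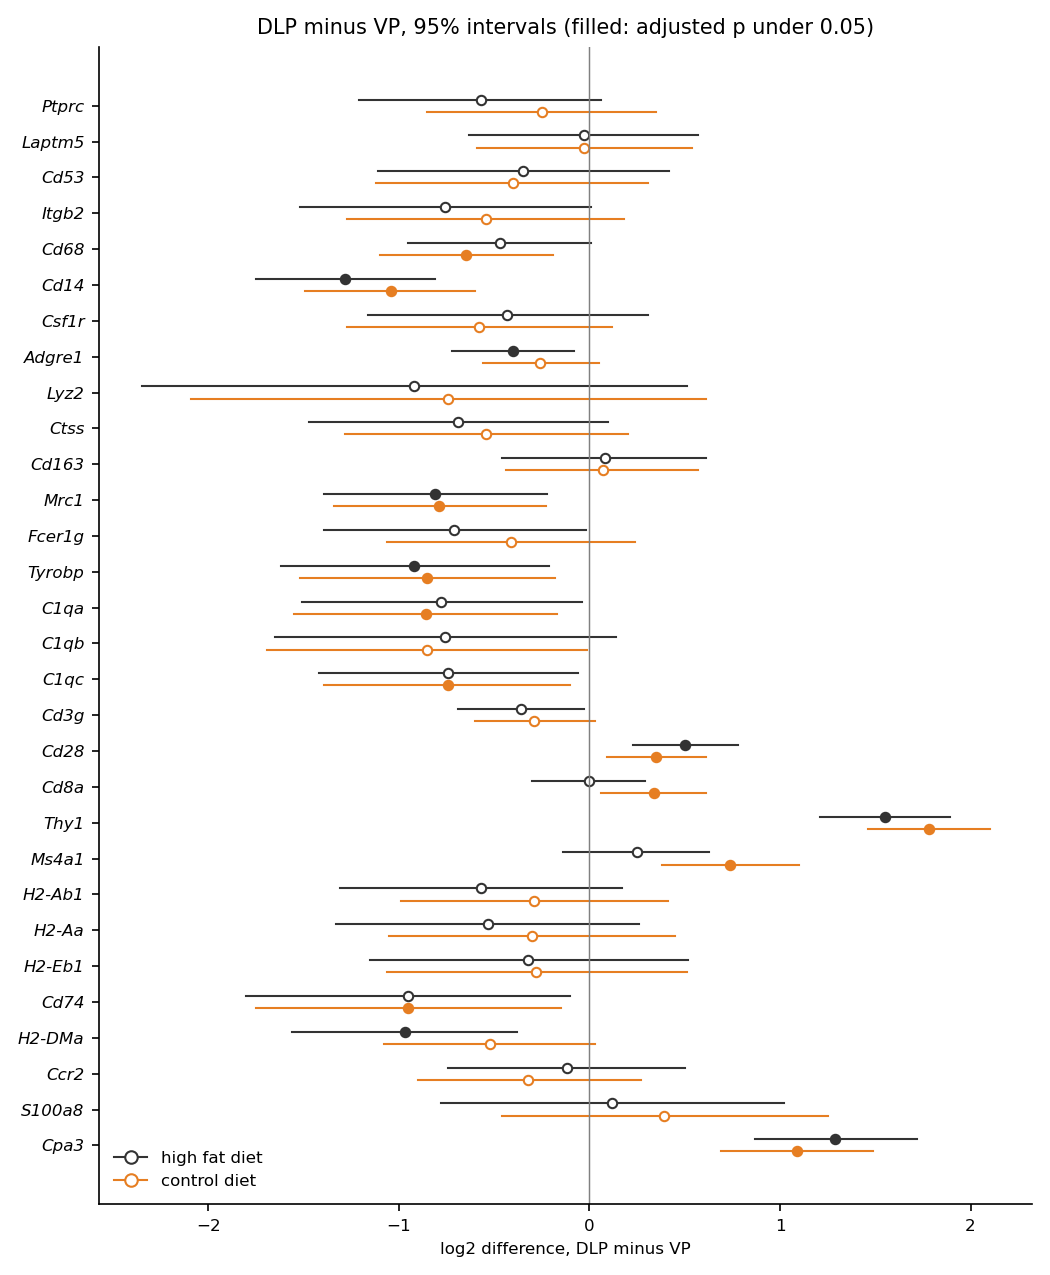
Log2 difference, DLP minus VP, of each of the 30 tested members (x axis) with its 95% interval, on the high fat diet (dark) and on the control diet (orange), with filled points for an adjusted p under 0.05. Thy1 and Cpa3 lay far to the right at 1.09 to 1.78 on both diets, Cd14 lay at -1.28 and -1.04, and most macrophage, C1q and class II genes lay left of 0 with intervals that often crossed it.

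Cd14, the coreceptor for bacterial lipopolysaccharide, had the largest fall among the macrophage genes. In HFD mice it was 2.50, 2.63, 2.60 and 2.52 in DLP and 3.65, 3.60, 4.37, 4.00 and 3.58 in VP, with no overlap. On the control diet it was 3.59, 2.46, 2.29, 2.69 and 2.25 in DLP and 3.84, 3.49, 3.85, 4.06 and 3.26 in VP, where control DLP 1 alone reached the range of VP. The difference was -1.28 on the high fat diet (2.43-fold lower in DLP, limma adjusted p = 8.3e-05) and -1.04 on the control diet (2.06-fold lower, adjusted p = 0.00034). Both calls held with any 1 array left out. The size of every fold depends on the offset in the logarithm, assumed to be 1 in the deposited values. With an offset of 16 the differences of Cd14 were -0.50 in HFD and -0.38 in control mice, those of Thy1 0.57 in HFD and 0.59 in control mice and those of Cpa3 0.23 in HFD and 0.22 in control mice, all still called.

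Mrc1, the mannose receptor of tissue macrophages, and Tyrobp, the adaptor protein DAP12 that signals for many myeloid receptors, fell in DLP on both diets. Mrc1 was 2.54, 2.63, 2.46 and 2.80 in HFD DLP and 3.06, 3.02, 4.30, 3.40 and 3.31 in HFD VP, with no overlap. In control mice it was 3.44, 2.64, 2.47, 3.09 and 2.83 in DLP and 3.99, 3.17, 4.25, 4.12 and 2.85 in VP, and the ranges overlapped. Its difference was -0.81 in HFD mice (adjusted p = 0.02) and -0.79 in control mice (adjusted p = 0.016). Tyrobp was 2.82, 2.73, 2.74 and 2.91 in HFD DLP and 3.26, 3.21, 4.93, 3.73 and 3.44 in HFD VP, again with no overlap. In control mice it was 3.74, 2.65, 2.15, 2.79 and 2.76 in DLP and 4.14, 3.10, 4.08, 4.12 and 2.90 in VP, where control DLP 1 lay within the range of VP. Its difference was -0.92 in HFD mice (adjusted p = 0.028) and -0.85 in control mice (adjusted p = 0.03). Mrc1 missed the threshold in HFD mice without HFD VP 3 or HFD DLP 3 (largest adjusted p = 0.06) and in control mice without control VP 3 (0.053). Tyrobp missed it in HFD mice without HFD VP 3 or HFD DLP 1, 2 or 3 (largest adjusted p = 0.081), and in control mice without control VP 1, 3 or 4 or control DLP 2, 3 or 5 (0.088).

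Cd68 was lower in DLP on the control diet, at 2.34, 1.75, 1.83, 1.95 and 2.01 in DLP against 2.93, 2.28, 2.67, 3.00 and 2.22 in VP. Control DLP 1 lay within the range of VP and the other DLP arrays below it. The difference was -0.65 (adjusted p = 0.016), and the call held with any 1 array left out. In HFD mice Cd68 differed by -0.47 with an adjusted p of 0.094. Adgre1, an adhesion receptor that marks mouse macrophages, was called lower on the high fat diet alone, at 2.26, 2.44, 2.38 and 2.68 in DLP against 2.73, 2.71, 3.42, 2.69 and 2.66 in VP. The highest DLP value exceeded the lowest VP value by little, and the difference was -0.40 (adjusted p = 0.035), a call that was lost without HFD VP 3 or HFD DLP 1, 2 or 3 (largest adjusted p = 0.11). On the control diet it was -0.26 (adjusted p = 0.14).

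The other macrophage genes did not pass on either diet. Lyz2 differed by -0.92 in HFD mice and by -0.74 in control mice, with intervals from -2.35 to 0.51 and from -2.09 to 0.61. Csf1r, Ctss (cathepsin S, a protease that trims Cd74) and Fcer1g (the shared gamma chain of Fc receptors) had differences between -0.71 and -0.41. Csf1r had 3 probe sets above the median on all 19 arrays, and in control mice these differed by -0.58, -0.60 and 0.34. Cd163, the haemoglobin scavenger receptor, was the macrophage gene with positive lobe differences, 0.08 in HFD and 0.07 in control mice. The 4 shared leukocyte genes, namely the phosphatase Ptprc (CD45), the lysosomal protein Laptm5, the tetraspanin Cd53 and the integrin chain Itgb2, were not called, with medians of -0.46 in HFD and -0.33 in control mice.

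**Figure D5:**
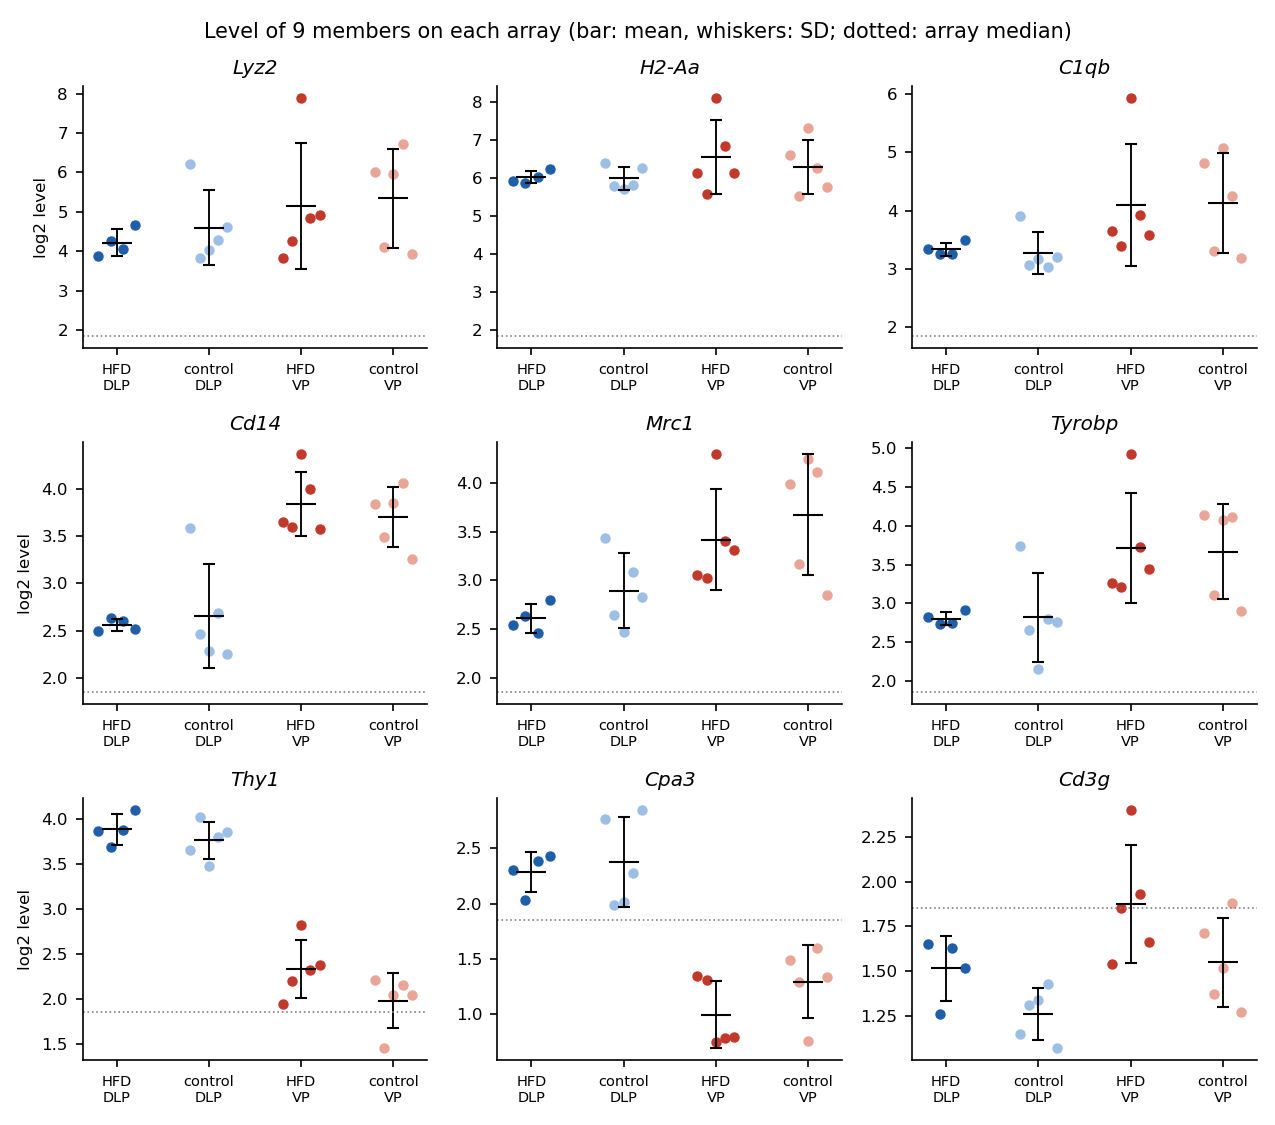
Log2 level of 9 members on each array (points), with the group mean (bar) and SD (whiskers), for HFD DLP, control DLP, HFD VP and control VP from left to right; the dotted line is the array median of 1.85 and the y axes differ between panels. HFD VP 3 is the top point of its group for Lyz2, H2-Aa, C1qb, Cd14, Mrc1, Tyrobp, Thy1 and Cd3g, and Thy1 and Cpa3 separate the lobes without overlap on both diets.

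The 3 C1q chains had similar lobe differences, of which 2 passed on the control diet. C1qa was 3.92, 2.99, 3.16, 2.78 and 3.63 in control DLP and 4.62, 3.61, 4.98, 4.44 and 3.13 in control VP, with overlapping ranges. It differed by -0.86 (adjusted p = 0.034), and C1qc by -0.74 (adjusted p = 0.047). C1qb was 3.91, 3.06, 3.17, 3.03 and 3.21 in control DLP and 4.82, 3.31, 5.08, 4.25 and 3.18 in control VP, and differed by -0.85 (adjusted p = 0.082). On the high fat diet the 3 differences lay between -0.78 and -0.74 and none was called with all arrays, although C1qa was 3.33, 3.40, 3.53 and 3.48 in HFD DLP and 3.78, 3.74, 5.45, 4.24 and 3.84 in HFD VP, with no overlap. With 1 array left out, the call of C1qa was lost without control VP 1, 3 or 4 or control DLP 2, 3 or 4 (largest adjusted p = 0.11), and that of C1qc in 13 of 19 fits (largest 0.13), among them those without the same 6 arrays. Calls were also gained, for C1qb in control mice without control VP 2, control VP 5 or HFD VP 3, and in HFD mice for C1qa without control VP 5 and for C1qc without HFD VP 2. C1qb also had 2 further probe sets, with control diet differences of -0.26 and -0.09.

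Among class II genes, the invariant chain and the peptide exchange chain were lower in DLP, and the antigen-presenting chains were not called. Cd74 was 5.34, 4.28, 4.08, 4.68 and 4.88 in control DLP and 6.06, 4.93, 6.55, 5.80 and 4.70 in control VP. Control DLP 1 and 5 reached into the range of VP, and the difference was -0.95 (1.94-fold lower, adjusted p = 0.041). In HFD mice Cd74 was 4.77, 4.92, 4.77 and 5.06 in DLP and 5.37, 4.94, 7.34, 6.18 and 5.32 in VP, and differed by -0.95 with an adjusted p of 0.055. Leaving out HFD VP 1, 2 or 5, or control VP 3 or 5, brought it under the threshold. The control diet call was lost in 6 of 19 fits with 1 array left out, each without control VP 1, 3 or 4 or control DLP 2, 3 or 4 (largest adjusted p = 0.13).

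H2-DMa, the alpha chain of the peptide exchange factor H2-DM, was lower in DLP on the high fat diet. It was 2.11, 2.13, 2.34 and 2.42 in HFD DLP and 3.02, 3.03, 4.41, 2.97 and 2.69 in HFD VP, with no overlap. The difference was -0.97 (1.96-fold lower, adjusted p = 0.0068) and held with any 1 array left out. In control mice the levels were 2.53, 1.76, 2.34, 2.37 and 2.90 in DLP and 3.05, 2.78, 3.55, 2.75 and 2.40 in VP, which overlapped, and the difference was -0.52 (adjusted p = 0.10). Whether H2-DMa responded to diet differently in each lobe was tested too, and it was not called (adjusted p = 0.79). H2-Aa, H2-Ab1 and H2-Eb1 had differences from -0.57 to -0.32 in HFD mice and from -0.30 to -0.28 in control mice, none of them called. Further probe sets of H2-Aa differed by -0.89, -0.35 and 0.12 in HFD mice and by -0.19, -0.32 and -0.18 in control mice. Those of H2-Ab1 differed by -0.33 and -0.30 in HFD mice and by -0.64 and -0.31 in control mice. Whether the differences of these chains differ in size from those of Cd74 and H2-DMa was not tested.

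Thy1 had the largest lobe difference of all members and went the other way. It was 3.86, 3.69, 3.88 and 4.10 in HFD DLP and 1.94, 2.20, 2.82, 2.32 and 2.38 in HFD VP. In control mice it was 3.65, 4.02, 3.48, 3.80 and 3.85 in DLP and 2.21, 1.45, 2.04, 2.15 and 2.04 in VP. Each DLP array lay above each VP array. The difference was 1.55 in HFD mice (2.93-fold higher, limma adjusted p = 1.3e-07) and 1.78 in control mice (3.44-fold higher, adjusted p = 7.4e-09). Nerve markers moved with the lobe too, with 2 of 5 called higher in HFD DLP and 5 of 5 in control DLP. Of all genes, 26.8% were called higher in HFD DLP and 28.2% in control DLP. The nerve list deviated by 0.00 to 0.65 in HFD DLP, by -0.17 to 2.92 in control DLP, by -1.09 to -0.46 in HFD VP and by -1.05 to -0.68 in control VP, so that each DLP array lay above each VP array. Of the 5 nerve genes, 4 passed the filter through DLP alone. The part of nerve in the Thy1 difference was not tested. The fibroblast list deviated by -0.04 to 0.07 in HFD DLP, by -0.09 to 0.53 in control DLP, by -0.45 to 0.40 in HFD VP and by -0.28 to 0.38 in control VP.

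The other T cell genes did not move as Thy1 did. Cd28 was called higher in DLP on both diets, by 0.50 in HFD mice (adjusted p = 0.0035) and by 0.35 in control mice (adjusted p = 0.024), using the DLP values above and VP values of 1.68, 1.60, 1.64, 1.62 and 1.88 in HFD and 1.19, 1.83, 1.67, 1.33 and 1.54 in control mice. The lobes did not overlap in HFD mice and overlapped in control mice, and 1 of 10 VP values lay above the array median, against 6 of 9 DLP values. Cd28 thus passed the filter through DLP, where it is high, and a difference was bound to follow. The control diet call was lost without control VP 1 or 4 or control DLP 2 or 5 (largest adjusted p = 0.079). A further probe set of Cd28 differed by 0.23 in HFD and 0.19 in control mice, and with the mean of its probe sets the call was lost on both diets (adjusted p = 0.06 in HFD mice). Cd8a, the alpha chain of CD8, was 2.08, 2.10, 2.22, 1.84 and 2.37 in control DLP and 1.55, 1.48, 1.85, 1.92 and 2.13 in control VP, and differed by 0.34 (adjusted p = 0.038). Its 4 other probe sets lay above the array median on 0 arrays and differed by -0.24 to 0.05, so that the call rests on 1 probe set, and it was lost without control VP 1 or 2 or control DLP 1, 2, 3 or 5 (largest adjusted p = 0.11). Cd3g ran the opposite way to Thy1, at -0.36 in HFD mice (adjusted p = 0.064) and -0.29 in control mice (adjusted p = 0.11). It lay above the array median on 4 VP and 0 DLP arrays, so that it passed the filter through VP and a lower level in DLP was bound to follow.

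Cpa3, the carboxypeptidase of mast cell granules, was higher in DLP on both diets. It was 2.30, 2.03, 2.39 and 2.43 in HFD DLP and 1.34, 1.31, 0.74, 0.78 and 0.79 in HFD VP. In control mice it was 2.77, 1.99, 2.01, 2.28 and 2.85 in DLP and 1.49, 1.29, 0.75, 1.60 and 1.33 in VP. All 9 DLP values lay above the array median and all 10 VP values below it. The gene passed the filter through DLP alone, so that a difference was bound to follow. It was 1.29 in HFD mice (adjusted p = 2.3e-05) and 1.09 in control mice (adjusted p = 7.9e-05). Among mast cell and granulocyte genes that are not members, 3 of 17 passed the filter. All 3 were called higher in DLP on both diets, where 26.8% of all genes were in HFD and 28.2% in control mice. Cma1, the mast cell chymase, was higher by 1.03 in HFD and 0.83 in control mice, and Kit, the receptor for stem cell factor, by 0.49 on each diet. Both lay below the array median on all VP arrays and passed the filter through DLP alone, as Cpa3 did. Gata2, a transcription factor of mast cells that prostate epithelium also makes, was higher by 3.94 in HFD and 4.03 in control mice.

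Ms4a1 was higher in DLP on the control diet, where its DLP values given above faced 1.41, 1.40, 1.80, 1.40 and 0.60 in control VP, without overlap. The difference was 0.74 (adjusted p = 0.0012), and another probe set, which lay above the array median on 0 arrays, differed by 0.67. On the high fat diet it was 0.25 (adjusted p = 0.27), with 1.52, 1.29, 1.25, 1.65 and 1.44 in HFD VP. Since Ms4a1 passed the filter only through control DLP arrays, this difference was bound to follow as well, and the B cell receptor chains Cd79a and Cd79b were at or below a level of 1.50 on all 19 arrays. Ccr2, the monocyte receptor for Ccl2, differed between lobes by -0.12 in HFD and -0.32 in control mice, and S100a8 by 0.12 in HFD and 0.39 in control mice, none of them called.

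Among macrophage genes outside the set, the share called lower in DLP was close to that of all genes. Of 26 such genes, 18 were tested, and 5 were called lower and 0 higher in DLP on each diet, where 26.1% of all genes were called lower in HFD and 26.8% in control mice. Negative differences numbered 16 of 18 in HFD mice and 15 of 18 in control mice, with medians of -0.46 in HFD and -0.37 in control mice. Mpeg1, a pore-forming protein of macrophages, differed by -1.03 in HFD mice (adjusted p = 0.018) and by -0.87 in control mice (adjusted p = 0.031). Cd33, a sialic acid receptor of myeloid cells, differed by -0.76 in HFD and -0.44 in control mice and was called on both diets, as was the fractalkine receptor Cx3cr1, which differed by -0.42 in HFD and -0.37 in control mice. Ms4a7, a relative of CD20 in macrophages, and Aif1, a calcium-binding protein of macrophages, were called lower in HFD mice, at -0.67 and -0.63, and Cybb, the catalytic chain of the phagocyte oxidase, in control mice, at -0.70. Cd33 and Aif1 lay below the array median on all DLP arrays and passed the filter through VP alone, so that a lower level in DLP was bound to follow. On the diet contrasts 0 of the 18 were called in either lobe.

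The remaining class II machinery had no common direction between lobes. Of 15 further class II genes, 10 were tested. On the high fat diet 2 were called higher and 3 lower in DLP, where 26.8% of all genes were called higher and 26.1% lower. On the control diet 2 were called higher and 2 lower, where the shares of all genes were 28.2% and 26.8%. Ctsl and Lgmn, lysosomal proteases of antigen processing that epithelia also make, were lower on both diets. Ctsl differed by -1.36 in HFD and -1.31 in control mice, and Lgmn by -1.18 in HFD and -0.93 in control mice. Ifi30, a lysosomal thiol reductase, was higher by 0.67 in HFD and 0.51 in control mice. Among the factors that bind the boxes shown above, Nfya was higher by 0.25 in HFD and 0.35 in control mice, Nfyc was called lower in HFD mice at -0.35, and Rfx5, Rfxap, Rfxank and Nfyb were not called. The diet differences of these 10 genes were not called in either lobe.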

How the data were processed

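Each of the 19 prostate RNA samples was hybridised to its own 3′ expression array. The deposited values were read as log10, and per the submitters' processing notes MAS5 was used. Neither the log base nor the step that gave all arrays the same sorted values is given in the sources used here. The hybridization controls served to infer the base, since their deposited steps of 0.53, 0.74 and 0.96 compare with 0.52, 0.70 and 0.60 from the nominal concentrations in log10. Values, deposited from 0 to 3.99 with a median of 0.555, were converted to log2 by a change of base alone. They were assumed to hold an offset of 1 inside the logarithm already, and none was added.

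The 64 control probe sets among 45101 were dropped. For the rest, 34945 had 1 symbol in the platform annotation, 932 had several and 9160 had none, and 34741 symbols were updated through gene identifiers of a GRCm38.p6 table used for names. Probe sets above the array median on at least 4 arrays were kept, and each gene was tested by the kept probe set with the highest mean. A member was tested only where its probe set with the highest mean of all was kept. The fit used limma 3.58.1 under R 4.3.3, with 4 group means over 19 arrays and an eBayes variance trend, and 1 spread per gene for all groups. Adjusted p-values are two-sided Benjamini-Hochberg values over 11728 genes at a threshold of 0.05. A group deviation is the mean, over the tested genes of a list, of the level minus its average over all arrays. The script was tested on simulated data.

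The members and gene lists were chosen with earlier results of these data known. By the rule for naming, all 40 members are named, with full statistics for those called. From each companion list of immune genes (myeloid, dendritic, lymphoid, class II, class I, granulocyte and mast, chemokine) up to 4 called genes with the largest size per lobe contrast are named, or the 2 smallest p where none is called, and H2-Ea is named whatever its value. Markers of other cell types and interferon response genes are given as lists. Alternatives covered the offset, filter, choice of probe set, variance prior, weights, normalization, replicate number, and arrays left out. Leaving out HFD VP 3 and control DLP 1 together was chosen after seeing the data. The number of arrays limits the precision. The anterior lobe, which the labels also name, was not analysed here.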

Additional observations from a re-analysis of the deposited data

Results flagged for a closer look

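Each of the 40 members was examined in each of the 4 groups for a single array whose gap to its nearest neighbour was large against the range of the group (Dixon's test at the 95% level). Of 160 groups, 22 held such an array, in 19 members, and chance alone gives about 1 in 20 groups. Since the members move together, these are not independent. HFD VP 3 accounted for 10, control DLP 1 for 7, and 5 other arrays for 1 each.

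HFD VP 3 stood apart from the rest of its group for Itgb2 at 4.04, Cd68 at 3.38, Adgre1 at 3.42, Lyz2 at 7.89, Cd163 at 2.85, Fcer1g at 4.85, C1qb at 5.93, C1qc at 4.82 and H2-DMa at 4.41, all on the log2 scale. The T cell adhesion receptor Cd2, which failed the filter, stood at 1.77 there, below the array median. The other HFD VP values of Lyz2 lay between 3.82 and 4.91, those of Fcer1g between 2.71 and 3.18 and those of C1qb between 3.40 and 3.92.

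Control DLP 1 stood apart for Cd53 at 3.46, Ctss at 5.55, Itgam at 1.90, Fcer1g at 3.13, C1qb at 3.91, S100a8 at 4.26 and S100a9 at 3.05. The other control DLP values of S100a8 lay between 1.37 and 2.00. Of the remaining values, S100a8 was high on control VP 4 at 2.92 and Cd28 on HFD VP 5 at 1.88. Ccl2 was high on control DLP 2 at 1.22, below the array median. Thy1 was low on control VP 2 at 1.45, and Ciita on control VP 5 at 1.14.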

How the results depend on the processing

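In the 2 diet contrasts and their difference, 0 of 30 members were called in every fit that left out 1 array and in every other alternative run. Between lobes, some calls held in all 19 fits with 1 array left out. These were Cd14, Thy1 and Cpa3 on both diets, Cd68 and Ms4a1 on the control diet and Cd28 and H2-DMa on the high fat diet. Those fits kept the same filter, which Cpa3, Ms4a1 and Cd28 passed through DLP, so that their differences were bound to follow. No called member changed sign. The number of arrays and their spread in VP limit what can be detected.

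Members called lower in DLP on the control diet numbered 7, against 3 with an offset of 16 and 16 without HFD VP 3 and control DLP 1. With 1 array left out they ranged from 2 (without control VP 3) to 9 (without HFD VP 3). Those called higher numbered 5, against 1 under the 75th percentile filter and 3 after cyclic loess, and 3 to 5 with 1 array left out. On the high fat diet, the lower members numbered 5, against 3 with the filter at the 75th percentile, 9 with 1 weight per lobe and 2 without control VP 4 and HFD VP 3, and 2 (without HFD VP 3 or HFD DLP 3) to 8 (without HFD VP 1 or 2) with 1 array left out. The higher ones numbered 3, with 1 at the 75th percentile filter and 3 in each fit with 1 array left out. A stricter filter tests fewer genes. The cause of the other changes was not tested.

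Over all genes, the diet contrast in VP called 130, against 209 with the filter at the 75th percentile, 78 without a filter, 47 with the mean of probe sets, 83 without a trend in the variance prior, 47 with array weights, 21 with 1 weight per lobe, 82 without HFD VP 3 and control DLP 1, and 0 with VP arrays alone, where 1222 genes had an unadjusted p under 0.05 (limma). With 1 array left out it called 70 (without HFD VP 5) to 148 (without control VP 1). In DLP it called 0, against 4 with an offset of 16, 1 without a filter, 5 with array weights and 6 with 1 weight per lobe, and 0 to 2 with 1 array left out. The difference of the diet differences called 1 gene, against 0 with the mean of probe sets, 3 without control VP 4 and HFD VP 3 and 0 without HFD VP 3 and control DLP 1, and 0 to 2 with 1 array left out. With 1 array left out, genes called between lobes ranged from 5640 to 6411 on the high fat diet and from 6099 to 6584 on the control diet.

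Replicate numbers are shared between groups. Deviations of same-numbered arrays of 1 diet in the 2 lobes correlated from -0.07 to 0.19, so the numbers do not show a pairing by mouse. Between diets they correlated from -0.15 to 0.17 in DLP. In VP, where the diets are also different mice, the correlation was 0.46 for number 2 and 0.38 for number 3. For the other numbers in VP it was -0.10 to 0.17. What the same-numbered VP arrays share was not tested. With the number as a fixed replicate block, 9 members were called lower in DLP on the high fat diet, with C1qa, C1qc, Cd3g and Cd74 gained, C1qb was gained on the control diet, and 0 genes for the difference of the diet differences. With the same diet and number as a random block, the correlation was 0.044, and Cd74 was called on the high fat diet.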

Other observations

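The MHC class I genes, which present peptides from inside the cell and are made by most cell types, differed between lobes in more than 1 direction. Of 12 listed, 11 were tested. On the high fat diet 1 was called higher and 8 lower in DLP, where 26.8% of all genes were called higher and 26.1% lower. On the control diet 1 was called higher and 5 lower, where the shares of all genes were 28.2% and 26.8%. B2m, the light chain shared by class I molecules, was higher by 1.35 in HFD and 1.62 in control mice, at 11.53 to 11.91 in HFD DLP, 11.87 to 12.07 in control DLP, 9.90 to 11.26 in HFD VP and 9.93 to 10.77 in control VP. The heavy chain H2-D1 differed by -1.26 in HFD and -0.79 in control mice, H2-K1 by -1.07 in HFD and -0.72 in control mice, Nlrc5, the coactivator of class I genes, by -1.17 in HFD mice, and the immunoproteasome chain Psmb8 by -1.16 in HFD and -0.98 in control mice. In VP all 11 had positive diet differences, with a median of 0.34 and none called by limma (2 with an unadjusted p under 0.05, as had 15.2% of all genes). Without HFD VP 3, whose class I deviation was 1.44 against 0.06 to 0.23 on the other HFD VP arrays, 9 were positive and the median was 0.10. The 12 interferon response genes likewise had positive diet differences in VP with a median of 0.94, none called, and 7 had an unadjusted p under 0.05. Without HFD VP 3 all 12 were still positive, with a median of 0.57 and 6 at an unadjusted p under 0.05.

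Chemokines split by gene. Cx3cl1, the membrane-bound ligand of Cx3cr1, was lower in DLP at -1.36 in HFD and -1.20 in control mice, as was Cxcl10, an interferon-induced attractant of T cells, at -1.10 in HFD and -0.63 in control mice. Cxcl12, which holds leukocytes and progenitors in stroma, was higher by 1.38 in HFD and 1.21 in control mice, and Ccl11, which attracts eosinophils, by 0.78 in HFD and 0.93 in control mice. Of 20 chemokine genes, 13 were tested, with 2 called higher and 4 lower on each diet. Of all genes, 26.8% were called higher and 26.1% lower in HFD mice, and 28.2% higher and 26.8% lower in control mice.

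Among lymphoid genes outside the set, 12 of 32 were tested. Gzmb, a protease of cytotoxic cells, was lower in DLP at -1.56 in HFD and -1.30 in control mice, and Nkg7, a protein of the same granules, at -0.54 in HFD and -0.67 in control mice. Both lay below the array median on all DLP arrays and passed the filter through VP alone, so that a lower level in DLP was bound to follow. Klrd1, a receptor of natural killer cells, was called lower in HFD mice at -0.62, and Mzb1, a chaperone of plasma cells, in control mice at -0.67. Both passed the filter through VP too. Gata3, a T cell factor that epithelium also makes, was higher by 2.61 in HFD and 2.48 in control mice. Ighm, the heavy chain of IgM, ranged from 4.43 to 10.33 in control VP and was not called in any contrast. Batf3, a factor of dendritic cells, was higher in DLP by 1.48 in HFD and 1.38 in control mice. Batf3 lay above the array median on 9 DLP and 3 VP arrays and so passed the filter through DLP, as did Ccl11. Irf8, a factor of dendritic and other myeloid cells, was higher by 0.25 in control mice. Of 10 dendritic genes listed, 4 were tested.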
